A study of Sus scrofa with 12 samples.

Results

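The calcium handling genes of skeletal muscle other than the release channel gene *RYR1* were described in longissimus muscle of Large White (LW) and Meishan (MS) pigs. They were 10 named genes, *ATP2A1*, *ATP2A2*, *SLN*, *CASQ1*, *CASQ2*, *CACNA1S*, *JPH1*, *JPH2*, *TRDN* and *STIM1*, of 28073 genes on chromosomes 1 to 18 and X of the Sscrofa11.1 gene table. For each of them, 3 things were collected from every library: loops anchored no more than 1 kb from either end of the gene, chromatin-associated RNAs that carry the name of the gene or lie inside it, and the signal of all RNAs on 1-kb DNA bins within 5 kb of a gene end. LW is labelled a commercial lean breed and MS a Chinese local breed. The piglets were 2-week-old males, and each breed gave 2 H3K27ac BL-HiChIP and 2 GRID-seq libraries. The study's methods speak of 2 piglets for LW and MS, and neither they nor the labels say that the libraries of a breed came from different animals, so that a p-value here measures only the spread between libraries, which may be technical. Values are given below for replicates 1 and 2 in that order.

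A muscle fibre contracts when calcium leaves the sarcoplasmic reticulum and relaxes when it is pumped back. The voltage sensor of the transverse tubule, with the subunit encoded by *CACNA1S*, opens the release channel at the junction that the junctophilins (*JPH1*, *JPH2*) hold together. Triadin (*TRDN*) ties the channel to calsequestrin, the calcium buffer of the store (*CASQ1* in fast fibres, *CASQ2* in slow and cardiac muscle). The pumps SERCA1 (*ATP2A1*, fast fibres) and SERCA2 (*ATP2A2*, slow fibres and heart) refill the store, sarcolipin (*SLN*) lowers pump activity, and STIM1 senses the calcium in the store and opens entry channels at the surface.

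H3K27ac BL-HiChIP (bridge linker HiChIP) lists pairs of 5-kb anchors that contact each other at chromatin carrying an active histone mark. GRID-seq ligates RNA to the DNA beside it and lists, for each chromatin-enriched RNA, its reads and its signal on DNA bins. The loop lists held 33353 to 57028 loops and the RNA lists 519 to 681 RNAs with 7172517 to 9943666 reads. Among 11 skeletal fibre markers, 7 were listed as RNAs in all 4 GRID-seq libraries. Of 20 markers of other cell types, only the fibroblast genes *COL1A1* and *COL3A1* were listed as RNAs in any. Loops were nonetheless found at 11 of these 20 in some library and at 4 in all 4 BL-HiChIP libraries. In whole muscle, fewer cells of a type and less RNA per cell cannot be told apart.

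The 10 genes carried 161 distinct loops in the 4 libraries together, 67 and 82 in LW, against 57 and 69 in MS. Every one of the 10 genes had a loop in every library, which was the case for 27.1% of the genes in the table. It was also the case for 10 of the 11 skeletal fibre markers and for 37 of 61 other calcium handling genes. Most loops were seen in 1 library, namely 58.4% against 69.1% of all 122406 loops, and 8.7% against 3.78% were seen in all 4. LW and MS shared 58 of the loops, which is 58 of 119 in LW and 58 of 100 in MS. The same shares over all loops were not computed, so that these counts do not set the 10 genes apart. Loops in both libraries of 1 breed and in neither of the other were few, with 3 in LW and 6 in MS. This is 1.86% against 4.39% of all loops for LW, and 3.73% against 2.37% of all loops for MS. For the 8 genes whose strand the RNA lists give, 102 loops had an anchor at the gene start and 22 at the other end alone.

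The loop score of a gene is the sum of −log10 FDR over its loops, so that more and firmer loops give a higher score. The median score of the 10 genes was 73.5 and 126.0 in LW and, in MS, 43.5 and 146.0. Over the 15412 genes with a loop in any library the median was 8.78 and 5.89 in LW and, in MS, 6.12 and 4.33. Replicate 2 scored above replicate 1 in both breeds for 8 of the 10 genes, which held for 22.2% of all genes. The replicate 2 lists were the shorter ones in both breeds. What part the library had in these scores was not tested.

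**Figure D1:**
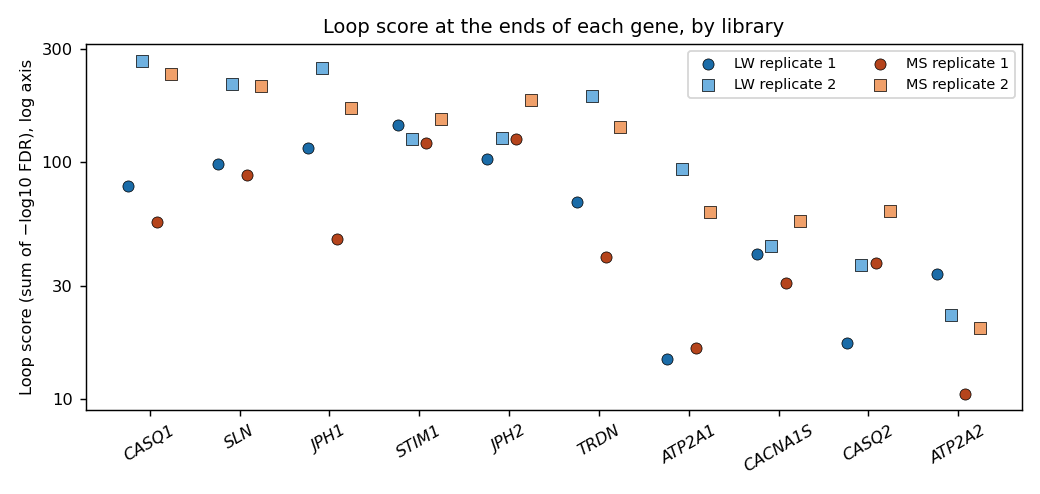
Loop score (sum of −log10 FDR, log axis) at the ends of the 10 genes, 1 point per library, with LW in blue and MS in orange and replicates 1 and 2 as circles and squares. For *CASQ1*, *SLN*, *JPH1*, *TRDN* and *ATP2A1* both squares lie above both circles, so that the replicates part before the breeds do.

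No gene among the 10 differed between the breeds past the threshold of the study, an absolute log2 fold change above 1.5 with an unadjusted p under 0.05, which 5.33% of the 15412 genes passed, 2.82% in the direction of LW and 2.5% in that of MS. The test was limma on quantile-normalized scores on the log2(score + 1) scale. The paper scored active promoters and used DESeq2, and it describes merging the libraries of each breed after the replicate check. Here both gene ends were scored, from the loops of each library. With limma, 821 of all genes and 0 of the 10 had an unadjusted p under 0.05, and no gene passed after adjustment. The limma adjusted p of the 10 genes was 0.992 or 1.0, and the smallest unadjusted limma p among them, of *CASQ2*, was 0.195. DESeq2 on the rounded score also called 0 of the 10, and no gene after adjustment. The median log2 fold change of LW over MS was −0.12 for the 10 genes and 0.02 for all. The normalized scores of the breeds did not overlap for 2 of the 10 genes, *CASQ2* and *JPH2*, both higher in MS, against 31.1% of all genes.

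Among the pumps and their regulator, *SLN* (chr9:36232955-36242405) had the strongest loop of all 10 genes in 3 of the 4 libraries. That loop joined the 5-kb window at the *SLN* start to one 15 kb upstream inside *SLC35F2*, at −log10 FDR values of 61.8 and 154.9 in LW, against 70.2 and 164.0 in MS. It ranked 39 of 43282 loops in LW replicate 2, 34 of 45061 in MS replicate 1 and 24 of 33353 in MS replicate 2. A 5-kb loop over the gene was likewise called in all 4 libraries. The start anchor also holds an end of *SLC35F2*, so that these loops cannot be given to 1 of the 2 genes. *SLN* scored 97.97 and 212.5 in LW, against 88.34 and 209.5 in MS, and the breeds overlapped (log2 fold change −0.13, SE 0.78). The paper names *SLN* among the genes with more loop regulation in MS, by its promoter score. That difference was not seen in the score used here, where DESeq2 gave a log2 fold change of −0.14. This score differs from the paper's in taking both gene ends and the loops of single libraries.

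*ATP2A1* (chr3:18545064-18568312) had 15 loops, 1 of them in all 4 libraries. This loop spanned 605 kb and joined the *ATP2A1* start to an anchor that holds ends of *MYLPF*, the regulatory light chain of fast myosin, and of *TBC1D10B*. Its −log10 FDR values were 2.2 and 12.9 in LW, against 3.44 and 6.04 in MS, so that in LW replicate 1 it was close to the limit of the lists. Loops in 3 libraries reached ends of *ATXN2L* at 40 kb and of *SH2B1* at 15 kb, both upstream, and 35 kb downstream into *RABEP2*. The strongest loop in both replicate 2 libraries ran 5 kb into the gene (30.1 in LW, 28.3 in MS). The score was 14.7 and 92.98 in LW, against 16.4 and 61.39 in MS, a range within each breed far above the distance between them (log2 fold change −0.10, SE 1.15).

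*ATP2A2* (chr14:31674659-31744981) had its loops on one side. All 11 had an anchor at the gene start, 10 of them ran upstream, and none ended at an end of another gene. The loops in 3 or 4 libraries, at 120, 150 and 170 kb, all landed inside *IFT81*. The start anchor of some loops, the 150-kb one among them, also holds an end of *LOC110256668*. Such loops cannot be given to *ATP2A2* alone. *ATP2A2* had the lowest mean score of the 10, with 33.64 and 22.52 in LW, against 10.53 and 19.89 in MS. Both LW values were above both MS values before normalization and not after it (log2 fold change 0.65, SE 0.81).

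Of the calsequestrin genes, *CASQ1* (chr4:90276752-90288990) had 24 loops, and the 3 that all 4 libraries held ran upstream by 65, 80 and 95 kb. The 95-kb loop had a −log10 FDR of 21.4 and 53.0 in LW, against 15.3 and 63.1 in MS. A 45-kb loop was called in both MS libraries (4.89 and 11.99) and in neither LW library. The *CASQ1* score was 79.52 and 267.5 in LW, against 56.02 and 234.7 in MS, with overlapping breeds (log2 fold change 0.16, SE 0.93).

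*CASQ2* (chr4:104918204-104984019) had only 5 loops, all at its lower end and 4 of them ending inside the gene. A 15-kb loop was held by all 4 libraries, at −log10 FDR values of 4.06 and 23.3 in LW, against 21.2 and 42.4 in MS. With 17.27 and 36.91 in LW, against 37.37 and 62.2 in MS, it was the one gene whose score was higher in both MS than in both LW libraries before and after normalization. The gap between the nearest libraries was small, and the difference did not pass the test (log2 fold change −1.20, SE 0.83).

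At the junction, *JPH1* (chr4:61628304-61716550) had 21 loops. Those in all 4 libraries ran 20 kb upstream (−log10 FDR 26.9 and 62.3 in LW, 9.02 and 63.4 in MS) and 50 kb into the gene (21.6 and 43.7 in LW, 14.7 and 38.9 in MS). A 345-kb loop to an end of *ELOC* was in both LW libraries and MS replicate 1. Both LW libraries and no MS library held a 5-kb and a 140-kb loop, each weak, with values of 2.38 to 4.25. The score was 114.5 and 249.4 in LW, against 47.29 and 169.1 in MS (log2 fold change 0.82, SE 0.85).

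*JPH2* (chr17:46590302-46665326) had 19 loops and none in all 4 libraries. Its strongest loop ran from the start over 60 kb of the gene in both replicate 2 libraries, over 70 kb in MS replicate 1 and over 75 kb, from the start to the other end, in LW replicate 1, with a −log10 FDR between 51.7 and 78.6. The windows thus differed while the contact between start and far part of the gene recurred. A 20-kb loop was seen in both MS libraries alone (13.2 and 19.1) and a weaker 5-kb loop in both LW libraries alone (4.66 and 3.56). Scores were 102.5 and 125.8 in LW, against 124.5 and 182.1 in MS (log2 fold change −0.59, SE 0.75).

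*TRDN* (chr1:39180544-39567245), the longest of the 10 genes, had nearly all of its loops inside the gene. All 16 had an anchor at the gene start and 15 ended inside the gene. Loops at 15, 55 and 105 kb were in all 4 libraries, and the 105-kb loop was the strongest in each, at −log10 FDR values of 18.6 and 78.0 in LW, against 13.6 and 57.8 in MS. The score was 67.55 and 190.4 in LW, against 39.78 and 141.0 in MS (log2 fold change 0.42, SE 0.89).

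**Figure D2:**
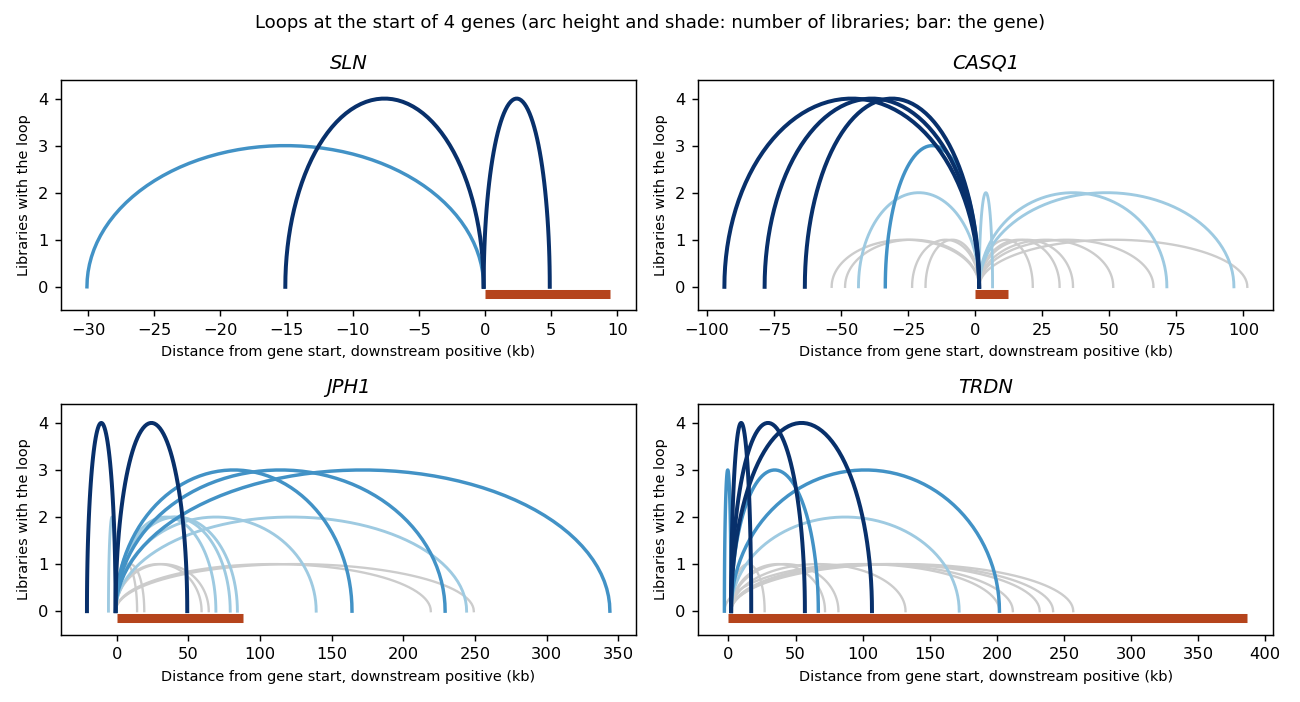
Loops at the start of *SLN*, *CASQ1*, *JPH1* and *TRDN* by distance from the gene start (kb, downstream positive). Arc height and shade give the number of libraries with the loop and the bar the gene, and the 460-kb loop of *SLN* is not drawn; the loops in all 4 libraries ran upstream of *CASQ1*, both ways from the starts of *SLN* and *JPH1* and into *TRDN*.

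The voltage sensor gene *CACNA1S* (chr10:23503701-23567797) had 13 loops, none in all 4 libraries. A 15-kb loop from the start into the gene was strong in 3 libraries (33.5 and 28.8 in LW and 36.6 in MS replicate 2) and was not called in MS replicate 1, where a 5-kb loop with 21.2 was the strongest. Scores lay close together, at 41.08 and 44.39 in LW, against 30.94 and 56.22 in MS (log2 fold change −0.17, SE 0.77). The start anchor is shared with an end of *ASCL5*.

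*STIM1* (chr9:6066612-6270090) had the most loops, 32, of which 27 ended inside the gene and 28 had their anchor at its upper end. Its strand is not given in the files. Of the 6 loops seen in both MS and no LW library over all 10 genes, 4 belonged to *STIM1* and spanned 130 to 195 kb within it, with values of 2.06 to 6.92. Its score differed little between libraries, 143.3 and 125.3 in LW, against 120.6 and 151.3 in MS (log2 fold change −0.17, SE 0.78).

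Chromatin-associated RNA was listed for 8 of the 10 genes. *CASQ2* and *STIM1* were not listed in any library, and a missing RNA is not shown to be absent, since the lists hold chromatin-enriched RNAs alone. *JPH2* was listed as 2 annotated RNAs inside the gene, ENSSSCG00000007369 over 46.4 kb and ENSSSCG00000031692 over 1.35 kb near the start, with further unannotated pieces. Levels are compared as RPKM, reads per kb of the listed interval (introns included) scaled to all listed reads of the library. *ATP2A1* led in every library, with 107.0 and 94.9 in LW, against 155.0 and 142.0 in MS. *CASQ1* followed with 76.2 and 71.1 in LW, against 56.2 and 51.7 in MS, and *SLN* came next with 60.1 and 55.2 in LW, against 44.4 and 39.7 in MS. This order of the 3 genes held in each library, while the short *JPH2* RNA (61.3 and 54.6 in LW, 55.4 and 52.0 in MS) was above *SLN* in all but LW replicate 2. *CACNA1S* was lowest, at 14.5 to 16.5. In LW the main *JPH2* RNA (23.6 and 21.3) and *TRDN* (21.3 and 19.2) were close, with *JPH2* above *TRDN* in both libraries.

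The middle of this order depended on the breed. *ATP2A2* had 38.9 and 34.7 RPKM in LW, above *JPH1* with 29.5 and 26.8. In MS *ATP2A2* had 21.8 and 19.4 and lay below *JPH1* with 35.2 and 31.9.

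**Figure D3:**
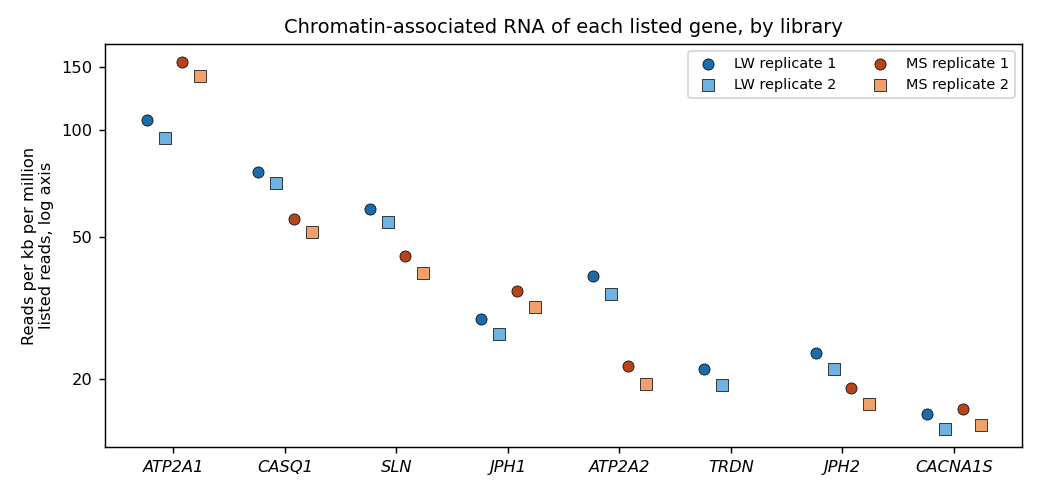
Chromatin-associated RNA of the 8 listed genes in RPKM over the listed reads (log axis), 1 point per library, with *JPH2* shown by its 46.4-kb RNA. *ATP2A1* and *JPH1* lie higher in MS, *ATP2A2*, *CASQ1*, *SLN* and *JPH2* higher in LW, and *TRDN* has no MS point because it was not listed there.

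Reads were compared between breeds with edgeR's quasi-likelihood test over the 305 RNAs listed under one name in all 4 libraries, which left out *TRDN*. Of the 8 RNAs tested, 4 were higher in LW, 3 were higher in MS and 1 did not pass at an adjusted p under 0.05. With 86.9% of the 305 RNAs past this threshold, 43.9% higher in LW and 43% higher in MS, a call by itself sets no gene apart. The median absolute log2 fold change was 0.36 for the 8 RNAs and 0.34 for all. The read counts of replicates agreed within counting error for 8 of 8 RNAs in both breeds, after scaling by the median ratio, and for 78.4% of all 305 RNAs in LW and 86.6% in MS. The p-values of these RNAs therefore rest on a spread no larger than counting error, which may be technical.

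The pump RNAs moved in opposite directions. *ATP2A2* had 22327 and 24257 reads in LW, against 10976 and 12797 in MS, and was 1.75-fold higher in LW (log2 fold change 0.81, SE 0.015, edgeR adjusted p = 3.4e-06). *ATP2A1* had 17748 and 19200 reads in LW, against 22680 and 27137 in MS, and was 1.51-fold higher in MS (log2 fold change −0.59, SE 0.013, edgeR adjusted p = 5.02e-06). Within a library, where no scaling enters, the ratio of *ATP2A2* to *ATP2A1* reads was 1.26 and 1.26 in LW, against 0.484 and 0.472 in MS. Beside the pumps, the slow fibre RNAs *MYH7* (log2 fold change −0.59) and *TNNT1* (−0.53) were higher in MS. The RNA listed as *TNNT3* of fast fibres, over an interval of 328 kb, was nearly equal (−0.05). *COL1A1* of fibroblasts was also higher in MS (−0.50). Over the marker list, 2 of 8 tested RNAs were higher in LW and 6 in MS, and their part in the pump difference was not tested.

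*SLN* (4637 and 5180 reads in LW, 3008 and 3513 in MS) was 1.35-fold higher in LW with an edgeR adjusted p of 8.84e-05. *CASQ1* (7018 and 7958 in LW, 4540 and 5456 in MS) was 1.34-fold higher in LW with an edgeR adjusted p of 0.000109. The ratio of *SLN* to *ATP2A2* reads was nonetheless lower in LW, 0.208 and 0.214 against 0.274 and 0.275 in MS.

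The junctophilin RNAs parted like the pumps. *JPH1* (21292 and 23495 reads in LW, 22252 and 26397 in MS) was 1.21-fold higher in MS with an edgeR adjusted p of 8.5e-06, and the main *JPH2* RNA (8965 and 9824 in LW, 6260 and 7397 in MS) was 1.23-fold higher in LW with an edgeR adjusted p of 9.76e-05. Both calls are lost when the total of listed reads scales the libraries, with adjusted p = 0.0741 for *JPH1* and 0.0892 for *JPH2* by edgeR, at the same direction. The ratio of *JPH2* to *JPH1* reads within a library was 0.421 and 0.418 in LW, against 0.281 and 0.28 in MS. The short *JPH2* RNA did not pass (log2 fold change 0.08, SE 0.055, edgeR adjusted p = 0.233).

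*CACNA1S* was close to equal, with 8471 and 9418 reads in LW, against 7711 and 9069 in MS. The 1.05-fold higher level in MS passed the test (edgeR adjusted p = 0.0167) and was lost without LW replicate 1, without MS replicate 1 or without MS replicate 2 (edgeR adjusted p = 0.0679, 0.0868 and 0.0783), at log2 fold changes of −0.08 to −0.06 and with the breed of 1 library assumed to vary like the other.

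*TRDN* was listed in LW alone. It had 67305 and 73574 reads in LW, 4.4 and 4.32 times what the lowest listed read density would give over its 386 kb, and was in neither MS list. Among the 67 named RNAs in both LW lists and no MS list it had the most reads in each LW library, and 85 named RNAs were in both MS lists and no LW list. At the lowest listed density of the MS libraries an RNA of this length would hold 14960 and 14578 reads. A list can miss an RNA of many reads: of 155 named RNAs with 10000 reads or more in MS replicate 2, 29 were not in MS replicate 1, among them *CACNA2D1* with 42353 reads. No fold is therefore given for *TRDN*, and a lower level in MS was not shown.

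**Figure D4:**
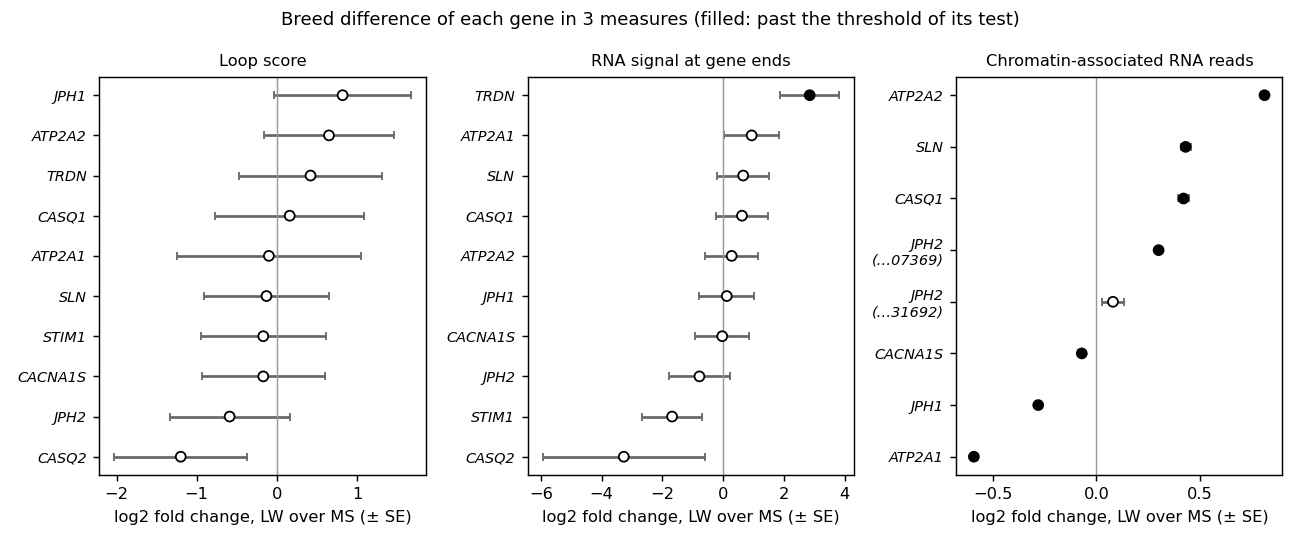
Log2 fold change of LW over MS with its standard error for the 10 genes in loop score and RNA signal at gene ends (limma) and for the 8 RNAs in reads (edgeR), with filled points past the threshold of each test. In loop score no point is filled, in RNA signal 1 (*TRDN*) is, and in reads 7 of 8 are, beside 86.9% of all RNAs.

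The RNAs differed in how far they spread from their genes. *SLN* RNA stayed local, with 99.8% and 95.4% of its signal within 10 kb of the gene in LW, against 99.7% and 99.9% in MS. *CASQ1* (88.3% to 92.2%) and *ATP2A1* (87.9% to 95.5%) were alike, near the medians of 83.1% to 92.7% over all listed RNAs. *CACNA1S* (69.9% to 77.8%) and *ATP2A2* (71.7% and 67.4% in LW, 83.3% and 80.7% in MS) spread farther. *ATP2A2* RNA also had more reads in LW and lay on more bins there (571 and 747) than in MS (321 and 325). The part of depth in these shares was not tested.

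*JPH1* RNA spread asymmetrically. Within 10 kb of the gene lay 46.9% and 47.1% of its signal in LW and, in MS, 58.5% and 52.2%. Downstream of the gene lay 43.7% and 45.5% in LW and, in MS, 36.7% and 43.3%, while 8.8% to 14.3% lay upstream. Downstream is also the side of its 165-kb to 345-kb loops, while its 20-kb loop in all 4 libraries ran upstream. *CASQ1* RNA in contrast had more signal upstream (18.8% to 24.1%) than downstream (11.2% to 15.4%), and its loops in all 4 libraries ran upstream.

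*TRDN* RNA was the widest of the 8. It lay on 6241 and 8330 bins in the LW libraries, of which 4791 and 6951 were more than 1 Mb away, and 47.8% and 43.2% of its signal was local. Signal on other chromosomes was small for every one of these genes, at most 1.27% (*ATP2A1* in MS replicate 2). Any bin on another chromosome was listed for *ATP2A1*, *ATP2A2*, *JPH1* and *TRDN* in both LW libraries, for no gene in MS replicate 1 and for *ATP2A1* and *JPH1* in MS replicate 2, and for 12.3% to 13.4% of all listed RNAs.

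Where loops did not end inside the gene, the RNA of the gene was usually found at the other anchor. Of such loops, 33 of 35 and 39 of 44 in LW and 21 of 26 and 24 of 28 in MS had signal of the gene's own RNA on that anchor. These counts include loops with both anchors at the gene's own ends. Such loops do not leave the gene, and its RNA is expected there. The only *TRDN* loop counted in each LW library was of this kind. The 2 readouts share distance, since both fall off with it, and this was given no test. The share over all genes with a listed RNA was not computed, so that the counts do not set these genes apart.

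**Figure D5:**
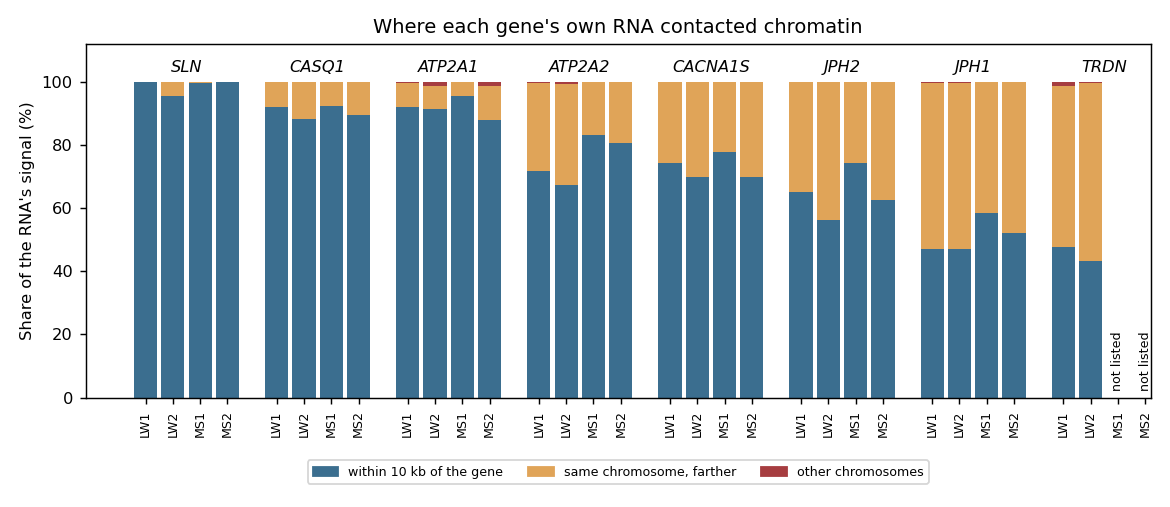
Share of each gene's own RNA signal (%) within 10 kb of the gene, farther on the same chromosome and on other chromosomes, 1 bar per library, with *JPH2* shown by its 46.4-kb RNA. *SLN* is almost wholly local at 95.4% or more, *TRDN* lies between 43.2% and 47.8% in LW, and *TRDN* was not listed in MS.

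The RNA signal on DNA at the gene ends came almost wholly from the gene's own RNA, 91.7% or more wherever that RNA was listed. Any RNA whose interval overlapped the gene was counted here as its own. *TRDN* alone passed the threshold of an absolute log2 fold change above 2 with an unadjusted p under 0.05, which 15.8% of 23302 genes passed, 7.49% in the direction of LW and 8.28% in that of MS. Its ends held 2194.0 and 2107.0 in LW, all from its own RNA, and 142.1 and 246.3 in MS, mostly from *EYA4* RNA of the same chromosome (112.1 and 225.4), a developmental transcription cofactor whose RNA was listed in both breeds. The log2 fold change was 2.85 (SE 0.97, limma adjusted p = 0.305, and 0.0463 before adjustment), and it follows the listing of *TRDN* described above. Without any 1 of the 4 libraries the fold change was 2.38 to 3.58 and the call was lost (limma p of 0.0611 to 0.0951 before adjustment), in fits where the breed left with 1 library is assumed to vary like the other.

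The breeds did not overlap in summed signal for 6 of the 10 genes, beside 37.2% of all genes. *ATP2A1* ends had more signal in LW (34430.0 and 25690.0) than in MS (18250.0 and 13530.0), the reverse of its reads. *SLN* (38360.0 and 49910.0 against 28430.0 and 26190.0) and *CASQ1* (74540.0 and 65110.0 against 46570.0 and 37840.0) were also higher in LW. *ATP2A2* was higher in LW by little (12010.0 and 12610.0 against 10530.0 and 10330.0), and *STIM1* was higher in MS (80.73 and 184.0 against 65.79 and 73.33 in LW, log2 fold change −1.68, SE 0.98). None of these 5 passed the test, and *ATP2A1*, *SLN* and *CASQ1* had log2 fold changes of 0.94, 0.66 and 0.62 and limma p of 0.362, 0.492 and 0.509. *JPH2* ends held 17660.0 in LW replicate 1 and 43760.0 to 51150.0 in the other libraries. In LW replicate 1 the short *JPH2* RNA had no signal within 10 kb of itself, while it lay on 22 local bins in each of the others.

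RNAs of other genes at these ends were few, and the strongest came from the same chromosome. *ZBTB16* RNA, from a transcription factor gene on the same chromosome, was on *STIM1* ends in all 4 libraries (52.34 and 62.13 in LW, 56.88 and 95.13 in MS) and on *SLN* ends in MS alone (152.7 and 95.12). ENSSSCG00000036948 RNA was on *CACNA1S* ends in MS alone (730.2 and 381.0) although it was listed in LW with 2701 and 2813 reads, and in MS with 5960 and 7009. *AMPD1* RNA was on *CASQ2* ends in MS replicate 2 alone (534.0). From other chromosomes, *TNNT3* RNA lay on *ATP2A1* ends in LW replicate 2 (161.8) and MS replicate 1 (170.2), and *TTN* and ENSSSCG00000048037 RNA recurred at low values, at most 37.44.

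With the RNA of the gene itself left out, 4 of the 10 genes passed the threshold, *TRDN*, *SLN*, *CACNA1S* and *JPH1*, all higher in MS, where 8.1% of 23288 genes passed in that direction. Their log2 fold changes were −8.14, −7.83, −5.75 and −3.27 with limma p of 0.00116, 0.00245, 0.0121 and 0.0395, and none passed after adjustment. At *TRDN* and *SLN* the LW libraries held no other RNA at all, so that the size of these fold changes depends on the pseudocount.

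Other genes of calcium handling were taken as a list of 61, *RYR1* included. In loop score 0 of the 55 tested passed the limma threshold in either direction, beside 5.33% of all genes. *DYSF*, which the paper names among genes with more loop regulation in LW, was among the 55 (log2 fold change −0.67, SE 0.8). In RNA signal 1 of 59 was higher in LW (*PPP3CA*, a calcineurin subunit) and 5 were higher in MS (*FKBP1B*, *CACNG6*, *CAV3*, *CALM2* and *MCU*), which is 6 of 59 beside 15.8% of all genes. Normalized signal in LW was 0 in both libraries for *FKBP1B*, *CACNG6* and *MCU*, and 0 and 3.14 for *CALM2*. In MS these genes held only 12.84 to 96.27, so that the size of their fold changes depends on the pseudocount. The same holds for *PPP3CA*, with 10.42 and 0 in MS. *PPP3CA*, like *TRDN*, was listed as an RNA in both LW libraries (32944 and 36739 reads) and in neither MS library. By name, 12 of the 61 were listed as RNAs in any library and 9 in all 4.

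Of these 9 RNAs, 5 were higher in LW, 3 were higher in MS and 1 (*JSRP1*) did not pass by edgeR, beside 86.9% of all 305 RNAs past the threshold. *CACNG1*, the gamma subunit of the voltage sensor, was 2.27-fold higher in LW, *TMEM38A*, the potassium channel that balances the charge of calcium release, 2.17-fold, and *SRL* (sarcalumenin, a calcium binding protein of the store) 2.16-fold. These 3 exceeded the change of each of the 8 RNAs above, at edgeR adjusted p of 3.79e-06, 3.4e-06 and 1.59e-06. *BIN1*, which shapes the transverse tubule, was 1.34-fold and *SYPL2* of the triad 1.14-fold higher in LW. *HRC*, which binds calcium in the store beside triadin (1.25-fold), and *STAC3*, the adaptor of the voltage sensor (1.12-fold), were among those higher in MS.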

How the data were processed

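The lists of 8 libraries were used, 4 of BL-HiChIP and 4 of GRID-seq, grouped by breed and replicate from the titles. For BL-HiChIP the authors aligned to Sscrofa11.1 with BWA-MEM, used Pairtools to remove duplicates and ran FitHiChIP on each library. The 1 value per loop that they deposited is an adjusted p-value (FDR), read as such because it ends under 0.01. For GRID-seq the authors mapped both ends with Bowtie2, kept chromatin-enriched RNAs and corrected for background. The RNA lists the authors deposited have no header. The whole number that they deposited for an RNA was taken for its count of reads. The value the authors deposited for a 1-kb bin, from 0.02 up, was taken for the background-corrected signal. Both were judged from the values.

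Genes were placed by RefSeq (Sscrofa11.1), without strand, so both gene ends stand for the start. Strand was taken from the RNA lists where given. An RNA was given to a gene by its name or by lying inside it. For the signal at gene ends, any RNA overlapping the gene was counted as its own, also where its own RNA was left out. Both summed scores were quantile-normalized and compared with limma 3.58.1 (R 4.3.3) on the log2(value + 1) scale, which understates changes of low genes, and reads with edgeR 4.0.16 (TMM, quasi-likelihood). DESeq2 1.42.0 was an alternative, with size factors of 1 for the rounded loop score. Others covered the pseudocount, scaling, filters, windows, the RNAs entered, a replicate block and leaving out each library. p-values were adjusted over all features tested. An exact permutation test of 2 against 2 libraries cannot go below p = 0.333. The tests were also run on simulated data, with an outcome not given here. Its libraries were drawn independently, while same-numbered libraries deviated together in reads (correlation 0.939). The simulation therefore does not bear on the p-values of the reads. Figures were drawn with Python 3.11.15 and matplotlib 3.10.9.

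Loop depth was 33353 to 57028 loops and RNA depth 7172517 to 9943666 listed reads per library. Contact counts and sequenced depth were not analysed here. The genes named were the 10 members, up to 3 other RNAs with the most signal at their ends, genes at far anchors of loops in at least 3 libraries or in 1 breed alone, a calcium list of 61 genes and a marker list. The members and lists were chosen with earlier results of these data known. Loops and RNAs named beyond this rule were picked after their values were seen, including *CACNA2D1*, genes that anchors lie inside or share and ENSSSCG00000048037. The RNA-end samples of GRID-seq have no list of their own. Results for some of the genes that this rule names are not reported here.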

Additional observations from a re-analysis of the deposited data

How the results depend on the processing

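No gene among the 10 passed in loop score under any of the 14 alternatives (the one at the transcription start alone could not test *CASQ2* and *STIM1*), although the signs of small differences turned. Without normalization, *ATP2A1* came to 0.22, *SLN* to 0.08 and *CACNA1S* to 0.03 on the log2 scale, while the median of all genes moved to 0.38 (0.15 when scaled to the same total). With anchors within 5 kb, *ATP2A1* came to 0.06, *ATP2A2* to −0.24 and *CASQ1* to −0.14. *ATP2A1* came to 0.19 with DESeq2 and to 0.07 by number of loops, *JPH2* to 0.10 by number of loops, and *CACNA1S* to 0.04 at the transcription start alone. Leaving out 1 library gave −1.38 to 1.30 for *ATP2A1*, −0.45 to 0.17 for *SLN*, −0.63 to 0.90 for *CASQ1*, −0.52 to 0.15 for *CACNA1S*, −0.30 to 1.06 for *TRDN* and −0.57 to 0.21 for *STIM1*. Without LW replicate 1 these were 1.30 for *ATP2A1* and 0.16 for *SLN*. Without LW replicate 2 they were −0.47 for *CASQ1*, −0.08 for *TRDN* and 0.21 for *STIM1*. Without MS replicate 1 they were −0.63 for *CASQ1* and −0.30 for *TRDN*. Without MS replicate 2 they were 0.73 for *ATP2A1*, 0.17 for *SLN* and 0.15 for *CACNA1S*. Of all genes, 435 were higher in LW and 386 in MS. The LW count was 859 without normalization, 715 scaled to the same total, 100 with DESeq2, 78 by number of loops and 13 at the start alone. The MS count was 955 with a pseudocount of 0.1, 146 with DESeq2, 68 by number of loops and 10 at the start alone, where only 554 genes were tested. Leaving out 1 library gave 298 to 881 for LW and 446 to 875 for MS, and 0 of the 10 genes each time.

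In RNA signal at gene ends, 1 of the 10 genes passed (*TRDN*). With a pseudocount of 0.1, with genes in at least 2 libraries, with RNAs of the same chromosome alone and without any 1 library the number was 0, and without the RNA of the gene itself it was 4. In that last setting the log2 fold change was −0.76 for *ATP2A1*, −1.62 for *ATP2A2*, −7.83 for *SLN*, −0.28 for *CASQ1*, −3.27 for *JPH1* and −8.14 for *TRDN*. *CACNA1S* came to 0.04 with bins within 1 kb and to 0.24 without MS replicate 1, and *JPH1* to −0.02 scaled to the same total, −0.09 without LW replicate 1 and −0.24 without MS replicate 2, within ranges of −0.34 to 0.24 for *CACNA1S* and −0.24 to 0.46 for *JPH1* without 1 library. All genes gave 1746 higher in LW and 1930 in MS, 1039 and 876 with RNAs of the same chromosome (12072 in place of 23302 genes tested), and 1380 to 3231 and 1640 to 3016 without 1 library.

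In reads, 7 of 8 RNAs passed, 6 to 7 without 1 library and 4 without TMM, where *CACNA1S*, *JPH1* and *JPH2* were lost and all RNAs gave 80 higher in LW and 84 in MS in place of 134 and 131. Without 1 library all RNAs gave 128 to 131 and 122 to 126. No read difference turned its direction under any alternative that tested the RNA. Sums by annotated gene held neither *JPH2* RNA by name, and the filter at 1000 reads left out the short one.

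With the replicate block, the loop counts were 694 for LW and 589 for MS, 0 of the 10 genes passed in RNA signal, and no read or loop call of the 10 genes changed. Whether the numbers pair the libraries is not given. The correlation of same-numbered deviations was 0.354 for loops, −0.00621 for signal and 0.939 for reads, over 2 pairs. Loops in both libraries of a breed numbered 30 of 119 in LW and 26 of 100 in MS, with no share over all loops computed beside them. The cause of these changes was not tested.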
